A study of Mus musculus with 12 samples.

Results

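The 10 genes described here are Mc2r, Csrp2, Rpp25, Gpr141, Ildr2, Dmrt2, Cacna1e, Stmn2, Kcnj2 and Fbln7, out of 32772 genes listed in the deposited count tables. They were chosen by name, for low unadjusted p-values in fat of obese mice given PCN against fat of obese mice given vehicle. RNA of gonadal white adipose tissue was sequenced from 12 libraries of C57BL/6N mice in 4 groups of 3. HFD PCN mice were kept on a high-fat diet (HFD) from 6 weeks of age for 18 weeks and injected into the abdomen once a day for 4 days with pregnenolone 16alpha-carbonitrile (PCN) at 50 mg/kg. HFD Vehicle mice had the same diet and injections of 30% DMSO in corn oil. HFD mice had the high-fat diet and Chow mice regular chow, both from the same age and for the same 18 weeks, with no injection given in the labels.

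The pregnane X receptor of mice, a nuclear receptor, is activated by the steroid PCN. It binds DNA paired with the retinoid X receptor and in liver and gut raises genes that metabolise drugs. The 10 genes form no single pathway. Mc2r is a hormone receptor of fat cells, Gpr141 an orphan receptor and Ildr2 a membrane protein. Cacna1e and Kcnj2 are ion channel genes, and Csrp2 and Stmn2 encode proteins that act on the cytoskeleton. Rpp25 is part of an RNA-processing enzyme, Dmrt2 a transcription factor and Fbln7 a protein of the extracellular matrix. White fat holds adipocytes beside macrophages, progenitors, vessels and a covering layer of mesothelial cells, so a level in whole tissue is a sum over these cells.

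Total counts ranged from 11090117 to 27408092 per library. Levels are given as CPM, counts scaled to a common library size, over the genes in both tables, scaled across the 12 libraries with TMM, a method that corrects for differences in composition. Duodenum is named as the source of the samples, while the series title names adipose tissue. The adipocyte genes Adipoq and Plin1 were at 357 CPM or more in all 12 libraries, and the intestinal gene Epcam was at 0.293 CPM or less. The 6 measured intestinal markers summed to 9.48 to 48.6 CPM over the 12 libraries, most of it Lgals4, a galectin, at 8.94 to 47.3 CPM, and Vil1 reached 2.70 CPM. HFD Vehicle 50 stood apart from its group. The 10 macrophage markers listed summed to 1070 CPM in it, against 9456 and 12230 CPM in HFD Vehicle 23 and 55, 12220 to 13850 CPM in HFD and 482 to 1421 CPM in Chow. Whether its label is right could not be settled from the files, so values with PCN that include it depend on that label. For the 10 genes, fold changes with PCN are given with and without this library.

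The genes entered by way of p-values from 2 fits, and these values are a description, since they chose the genes. In edgeR's quasi-likelihood fit of the 6 libraries, Mc2r, Rpp25, Csrp2, Gpr141 and Ildr2 had unadjusted p-values of 0.00350 to 0.0119 and 28 genes outside the 10 had a p smaller than the highest of them. The gene just outside, Gm10851, had an unadjusted p of 0.0120 in edgeR. Dmrt2, Cacna1e, Stmn2, Kcnj2 and Fbln7 stood among low p-values only when HFD Vehicle 50 was left out of the edgeR fit. Their unadjusted p-values there were 0.000411 to 0.000906, with Ildr2 and 7 genes outside the 10 at a smaller p than the highest of them and Upk3b just outside at 0.00101. With all 6 libraries the same 5 genes had edgeR unadjusted p-values of 0.187 to 0.468. No gene passed an adjusted p of 0.05 in edgeR in either fit (0 of 16563 and 0 of 16873 genes, 0%, with 281 and 898 at an unadjusted p under 0.05). DESeq2 called 1 gene with all libraries. Without HFD Vehicle 50, in a fit added after seeing the data, it called 44 of 29853 genes with a p-value, among them 6 of the 10. The genes were chosen for this contrast, so nothing is read from that count. DESeq2 adjusted p-values of these 6 were 5.78e-06 for Ildr2, 2.24e-05 for Dmrt2, 0.000308 for Cacna1e, 0.00262 for Fbln7, 0.0108 for Stmn2 and 0.0257 for Kcnj2. The other 4 did not pass, with DESeq2 adjusted p-values of 0.0701 for Mc2r, 0.133 for Csrp2 and Rpp25 and 0.413 for Gpr141. In the authors' deposited table the unadjusted p-values of the 10 genes ran from 0.000213 for Mc2r to 0.449 for Fbln7. None of the 10 had an adjusted p under 0.810 in the authors' deposited table, where 2 of 30453 genes were under 0.05.

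**Figure D1:**
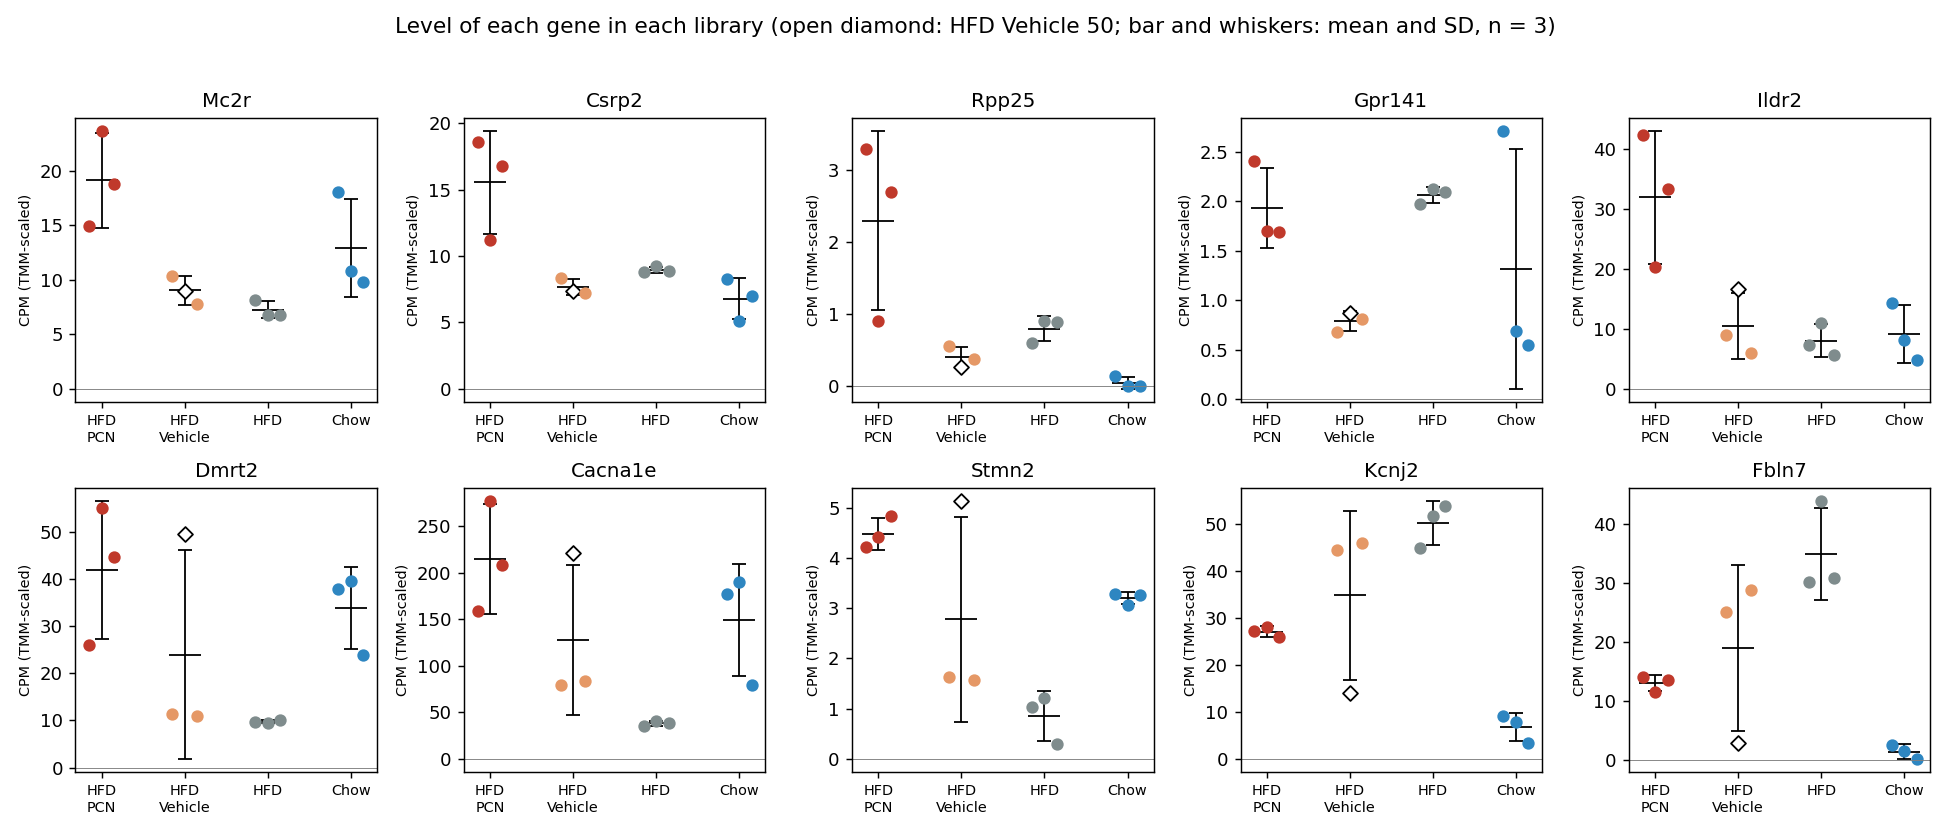
Level of each of the 10 genes (y axis, CPM scaled with TMM) in each library of the HFD PCN, HFD Vehicle, HFD and Chow groups (x axis). Points are libraries, the open diamond is HFD Vehicle 50, and bars and whiskers are the mean and SD of 3 libraries. The upper row holds the 5 genes whose PCN libraries all lay above all vehicle libraries, and the lower row the 5 for which HFD Vehicle 50 lay apart from the other vehicle libraries.

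Among the receptors, Mc2r (ENSMUSG00000045569, GRCm38 chromosome 18, 68406907 to 68429251, minus strand) encodes the receptor for adrenocorticotropic hormone, which acts through cAMP and in mouse fat cells drives lipolysis. Mc2r was at 14.9, 23.7 and 18.8 CPM in HFD PCN 5, 11 and 27, against 10.4, 8.96 and 7.77 CPM in HFD Vehicle 23, 50 and 55. All PCN libraries lay above all vehicle libraries, and HFD Vehicle 50 did not stand apart for this gene. The log2 fold change was 1.07 (SE 0.24), and 1.09 (SE 0.25) without HFD Vehicle 50. In HFD the libraries held 8.18, 6.82 and 6.82 CPM and in Chow 18.1, 10.8 and 9.81 CPM, so the PCN libraries lay above HFD and overlapped with Chow. In HFD against Chow, a contrast in libraries that did not choose the genes, Mc2r fell by 0.95 on the log2 scale (SE 0.23), with an edgeR adjusted p of 0.00716. The HFD and Chow libraries did not overlap on the TMM scale and overlapped when scaled by library totals.

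The accessory protein that brings the Mc2r product to the cell surface, Mrap, was at 72.9 ± 13.01 CPM in HFD PCN and 61.2 ± 11.4 CPM in HFD Vehicle (SD, n = 3 each), where HFD Vehicle 50 was the lowest at 49.8 CPM. The diet difference of Mrap was not significant, with 78.7 ± 4.51 CPM in HFD, against 67.3 ± 18.5 CPM in Chow (edgeR adjusted p = 0.593). Of 21 listed genes of melanocortin receptors and the cAMP steps to lipolysis, 17 were tested with diet, and 10 fell and 3 rose (median log2 fold change -1.20, against -0.03 over all 16216 genes, of which 59.8% passed). With DESeq2 8 fell and 4 rose. Adipocyte markers, of which Lipe, Plin1 and Pnpla2 are also in this list, summed to 8472 to 10710 CPM in HFD, against 26910 to 30510 CPM in Chow, and their part in the result was not tested. Adcy5 and Adcy3 encode adenylyl cyclases, the enzymes that make cAMP. Adcy5 fell to 100.3 ± 2.63 CPM in HFD, against 352 ± 23.1 CPM in Chow (edgeR adjusted p = 1.00e-05), while Adcy3 rose to 163 ± 9.79 CPM in HFD, against 38.1 ± 3.54 CPM in Chow (edgeR adjusted p = 1.12e-05). None of the 16 tested with PCN passed (0 of 16), and no relative of any of the 10 genes passed with PCN without HFD Vehicle 50 either. In these edgeR fits 0% of all genes passed, so nothing about the relatives is read from these counts, here and for the lists below. The adrenal cortex also makes Mc2r. Its enzyme genes Cyp11a1 and Cyp21a1 were at most at 2.57 and 0.409 CPM in the 12 libraries, both in HFD 4, and the adrenal list summed to 75.6 to 106 CPM in HFD PCN and 73.4 to 90.9 CPM in HFD Vehicle. Mrap, which adipocytes make too, is one of the 6 measured genes of that list.

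Gpr141 (ENSMUSG00000053101, chromosome 13, 19749682 to 19824257, minus strand) encodes an orphan G protein-coupled receptor found in myeloid cells. It was at 2.40, 1.70 and 1.69 CPM in HFD PCN 5, 11 and 27, from 65, 32 and 30 counts. In HFD Vehicle 23, 50 and 55 it was at 0.678, 0.870 and 0.815 CPM, from 17, 10 and 15 counts. The vehicle libraries were the low ones: HFD libraries held 1.97, 2.12 and 2.09 CPM, overlapping with HFD PCN and above all vehicle libraries. PCN over vehicle gave a log2 fold change of 1.29 (SE 0.32), and of 1.39 (SE 0.36) without HFD Vehicle 50. Chow libraries spread widely, at 2.71, 0.691 and 0.545 CPM in Chow 8, 17 and 19. The diet difference did not pass (log2 fold change 0.48, SE 0.50, edgeR adjusted p = 0.432), and without Chow 8 it did (log2 fold change 1.58, edgeR adjusted p = 0.00381). All 11 tested of 12 listed receptors of myeloid cells rose with diet, 10 of them past the threshold with DESeq2 (median log2 fold change 2.08), while 29.8% of all genes were called higher. Macrophage markers moved with them, at 12220 to 13850 CPM in HFD, against 482 to 1421 CPM in Chow, and their part in the result was not tested. Gpr183, an oxysterol receptor of immune cells, rose to 16.9 ± 2.06 CPM in HFD, against 1.73 ± 0.490 CPM in Chow (edgeR adjusted p = 1.68e-05), and P2ry6, a receptor for UDP, to 66.6 ± 5.59 CPM in HFD, against 7.75 ± 2.92 CPM in Chow (edgeR adjusted p = 2.16e-05). Of 11 tested with PCN, 0 passed.

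Ildr2 (ENSMUSG00000040612, chromosome 1, 166254139 to 166316823, plus strand) encodes a membrane protein with an immunoglobulin-like domain, one of the angulins that mark corners where 3 cells meet. Of its exon bases 11.0% were overlapped by 5330438I03Rik on the other strand, and whether counting used the strand is not stated, so its counts may include reads of that gene. The promoter of Ildr2 is shown because this gene had the largest fold change of PCN over vehicle, after Rpp25, and its window held a half-site of the kind that nuclear receptors such as the PCN receptor bind. The 250 bases before its RefSeq start site (GRCm38.p6, chr1:166253889-166254138, plus strand) follow, 5′ to 3′, with the half-site in capitals, here as the reverse complement of AGGTCA.
Ildr2: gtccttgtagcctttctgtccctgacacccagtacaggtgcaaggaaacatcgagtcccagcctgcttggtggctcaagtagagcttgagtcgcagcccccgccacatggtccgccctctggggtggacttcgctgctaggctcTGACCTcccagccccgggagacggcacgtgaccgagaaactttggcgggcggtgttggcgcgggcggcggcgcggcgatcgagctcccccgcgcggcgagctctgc
The half-site starts at position -106 from the start site. RefSeq promoter windows were found for 7 of the 10 genes, and AGGTCA or AGTTCA on either strand occurred before the start site in 2 of the 7, Ildr2 and Cacna1e, against 24.2% of all 32851 windows. AGGTCA was in the window of Ildr2 (14% of all windows) and AGTTCA in that of Cacna1e (11.8%). Direct repeats of these half-sites with 3 or 4 bases between them, or everted repeats with 6, occurred in 0 of the 7 windows and in 0.0122%, 0.0244% and 0.00913% of all windows. The window of Cacna1e lies inside the gene as the files place it, and all 250 of its bases are exon bases in GENCODE M21. A match is a description of letters in these windows.

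Ildr2 was at 42.3, 20.3 and 33.3 CPM in HFD PCN 5, 11 and 27, against 8.93, 16.6 and 5.97 CPM in HFD Vehicle 23, 50 and 55. HFD Vehicle 50 was the highest of its group and still below all PCN libraries. On the log2 scale the fold change was 1.58 (SE 0.46), and 2.11 (SE 0.35) without HFD Vehicle 50. HFD libraries held 7.32, 11.0 and 5.68 CPM and Chow libraries 14.3, 8.21 and 4.80 CPM. The PCN libraries were thus the only group apart, above all others. With diet Ildr2 did not pass (log2 fold change -0.31, SE 0.37, edgeR adjusted p = 0.501), and without Chow 8 the sign turned (0.16). Of 9 listed junction genes 6 were tested with diet, and 3 fell and 2 rose, where 59.8% of all genes passed. F11r and Tjp1, a junction adhesion molecule and a scaffold protein of tight junctions, fell with log2 fold changes of -1.61 and -1.60. Of the same 6, 0 passed with PCN.

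Csrp2 (ENSMUSG00000020186, chromosome 10, 110919789 to 110939622, plus strand) encodes a protein of 2 LIM domains that binds the actin cytoskeleton in smooth muscle and stellate cells. Csrp2 was at 18.6, 11.2 and 16.8 CPM in HFD PCN 5, 11 and 27, against 8.37, 7.39 and 7.22 CPM in HFD Vehicle 23, 50 and 55. Libraries of HFD were at 8.81, 9.23 and 8.85 CPM and those of Chow at 8.26, 5.14 and 6.98 CPM. Each PCN library lay above all 9 others, and the other 3 groups lay close together. PCN libraries averaged 2.005 times the vehicle libraries in the fit (log2 SE 0.24), and 2.01 times (log2 SE 0.25) without HFD Vehicle 50. With diet it was 0.28 (SE 0.19) and did not pass (edgeR adjusted p = 0.220), although the HFD and Chow libraries did not overlap. The summed level of 9 smooth muscle and pericyte markers was 433 to 644 CPM in HFD PCN and 442 to 813 CPM in HFD Vehicle. Of 13 listed LIM genes 11 were tested with diet. In edgeR 5 rose and 4 fell, where 59.8% of all genes passed, and with DESeq2 5 rose and 3 fell. Fhl2 rose to 17.8 ± 1.65 CPM in HFD, against 2.35 ± 0.652 CPM in Chow. Crip1 rose to 294 ± 12.97 CPM in HFD, against 30.0 ± 15.6 CPM in Chow. The PCN fit called 0 of the 11.

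Rpp25 (ENSMUSG00000062309, chromosome 9, 57504026 to 57505448, plus strand) encodes a protein subunit of RNase P and RNase MRP, which trim transfer and ribosomal RNA precursors. It was a low gene, with 89, 17 and 48 counts in HFD PCN 5, 11 and 27 (3.29, 0.904 and 2.70 CPM). HFD Vehicle 23, 50 and 55 held 14, 3 and 7 counts (0.558, 0.261 and 0.380 CPM). All PCN libraries lay above all vehicle libraries, with HFD PCN 11 close to the HFD libraries, at 0.595, 0.898 and 0.897 CPM. Its log2 fold change was 2.45 (SE 0.57), and 2.28 (SE 0.63) without HFD Vehicle 50. Chow libraries held 2, 0 and 0 counts, and the gene did not pass the expression filter of the diet fit. The 56 counts of the HFD group against 2 of the Chow group came to 14.1 times as many after scaling (95% interval 3.71 to 119, for counting error only). In the edgeR fit without a filter the log2 fold change with diet was 3.64 (SE 0.82, edgeR adjusted p = 0.000620). Of 12 listed parts of RNase P and RNase MRP 10 were tested with diet, and 5 rose and 0 fell. Over all genes 59.8% passed, 29.8% higher and 30% lower. Rpp30 rose to 10.4 ± 0.477 CPM in HFD, against 4.32 ± 0.877 CPM in Chow, and Rpp21 to 10.9 ± 0.322 CPM in HFD, against 5.31 ± 1.05 CPM in Chow. In the PCN fit 0 of 11 tested passed, and the median of the list was 0.10 on the log2 scale, and -0.06 without HFD Vehicle 50.

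In Mc2r, Csrp2, Rpp25, Gpr141 and Ildr2 the PCN libraries were above the vehicle libraries without overlap, while 3.57% of all genes were so (6.31% in either direction). The rule chose these genes for that contrast, so nothing is read from the count. Dmrt2, Cacna1e and Stmn2 were above, and Kcnj2 and Fbln7 below, without overlap once HFD Vehicle 50 was left out, where 10.3% and 11% of all genes were so (21.3% in either direction).

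Dmrt2 (ENSMUSG00000048138, chromosome 19, 25672420 to 25679010, plus strand) encodes a DM domain transcription factor, known for its part in patterning somites and muscle in the embryo. Dmrt2 was at 26.0, 54.9 and 44.5 CPM in HFD PCN 5, 11 and 27. In HFD Vehicle 23, 50 and 55 it was at 11.4, 49.5 and 11.0 CPM, so that HFD Vehicle 50 alone lay within the PCN range. HFD libraries held 9.70, 9.44 and 9.99 CPM, close to HFD Vehicle 23 and 55, and Chow libraries 37.9, 39.6 and 23.9 CPM, overlapping with HFD PCN. PCN over vehicle gave a log2 fold change of 0.76 (SE 0.67), and of 1.92 (SE 0.32) without HFD Vehicle 50. With diet Dmrt2 fell by 1.92 on the log2 scale (SE 0.19), with an edgeR adjusted p of 7.58e-05. None of the 7 other DM domain genes listed passed the expression filter in either comparison.

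Among the channels, Cacna1e (ENSMUSG00000004110, chromosome 1, 154390731 to 154884501, minus strand) encodes the pore subunit of the R-type voltage-gated calcium channel of neurons and endocrine cells. It was well measured, at 159.5, 277 and 208 CPM in HFD PCN 5, 11 and 27, and at 79.2, 221 and 83.6 CPM in HFD Vehicle 23, 50 and 55. HFD libraries were the lowest, at 34.9, 40.7 and 38.9 CPM, below every vehicle library. Chow libraries were at 177, 189.8 and 79.9 CPM and overlapped with HFD PCN. PCN over vehicle gave a log2 fold change of 0.71 (SE 0.48), and of 1.42 (SE 0.25) without HFD Vehicle 50. With diet Cacna1e fell by 2.09 on the log2 scale (SE 0.29), with an edgeR adjusted p of 0.000445. Of 17 listed calcium channel subunits 12 were tested with diet. In edgeR 5 fell and 4 rose, where 59.8% of all genes passed, and with DESeq2 3 fell and 4 rose. The auxiliary subunit Cacna2d3 fell to 0.0811 ± 0.0271 CPM in HFD, against 3.58 ± 0.754 CPM in Chow, and the pore subunit Cacna1d rose to 43.9 ± 5.96 CPM in HFD, against 8.48 ± 1.96 CPM in Chow. With PCN none passed (0 of 12).

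Stmn2 (ENSMUSG00000027500, chromosome 3, 8509360 to 8561606, plus strand) encodes a stathmin, a protein that destabilises microtubules and is typical of growing neurons. Counts were low, at 114, 83 and 86 in HFD PCN 5, 11 and 27 (4.21, 4.42 and 4.84 CPM) and at 41, 59 and 29 in HFD Vehicle 23, 50 and 55 (1.64, 5.13 and 1.57 CPM). HFD Vehicle 50 was the highest of the 12 libraries. HFD libraries held 1.04, 1.22 and 0.299 CPM and Chow libraries 3.29, 3.07 and 3.27 CPM, with every PCN library above both groups. The log2 fold change of PCN over vehicle was 0.68 (SE 0.53), and 1.49 (SE 0.26) without HFD Vehicle 50. With diet Stmn2 fell by 1.96 on the log2 scale (SE 0.41), with an edgeR adjusted p of 0.00369. The neuronal gene Elavl4 was at 0 in 9 of the 12 libraries and at most at 0.111 CPM. The 8 measured neural and Schwann cell markers summed to 7.54 to 11.2 CPM in HFD PCN, 5.74 to 12.9 CPM in HFD Vehicle, 14.8 to 22.3 CPM in HFD and 7.30 to 11.6 CPM in Chow. Stmn1, the stathmin of dividing cells and the only tested one of 3 relatives, rose to 44.1 ± 3.57 CPM in HFD, against 4.04 ± 1.97 CPM in Chow (edgeR adjusted p = 2.89e-05), the opposite sign to Stmn2.

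**Figure D2:**
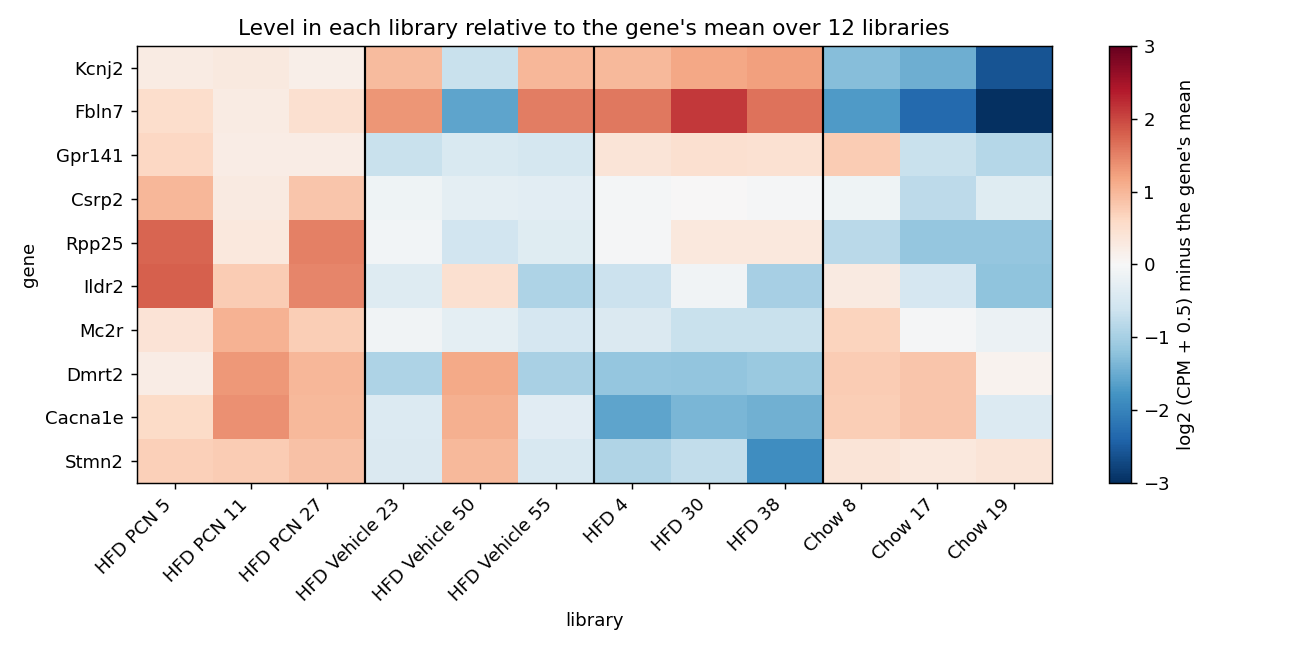
Level of each gene (rows) in each library (columns) as log2 (CPM + 0.5) minus the gene's mean over the 12 libraries, with red above and blue below the mean. Black lines part the HFD PCN, HFD Vehicle, HFD and Chow groups. HFD Vehicle 50 lies on the same side of the mean as the Chow libraries for Kcnj2, Fbln7, Dmrt2 and Stmn2. For Cacna1e it lies above the mean with Chow 8 and Chow 17, while Chow 19 lies below it.

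Kcnj2 and Fbln7 were the genes with lower values with PCN. Kcnj2 (ENSMUSG00000041695, chromosome 11, 111066164 to 111076821, plus strand) encodes the inward rectifier potassium channel Kir2.1, which holds the resting potential of muscle cells and is also present in macrophages. It was at 27.2, 28.1 and 25.9 CPM in HFD PCN 5, 11 and 27, a narrow range, and at 44.5, 14.1 and 45.8 CPM in HFD Vehicle 23, 50 and 55. The PCN libraries lay between HFD, at 44.9, 51.7 and 53.8 CPM, and Chow, at 9.07, 7.90 and 3.38 CPM, and overlapped with neither. The log2 fold change of PCN over vehicle was -0.36 (SE 0.40), and -0.72 (SE 0.12) without HFD Vehicle 50. With diet Kcnj2 rose 6.66-fold (log2 fold change 2.73, SE 0.27, edgeR adjusted p = 8.63e-05). Of 14 other inward rectifier genes listed 4 were tested with diet, and 2 fell and 1 rose, where 59.8% of all genes passed. Kcnj15 fell to 21.4 ± 2.60 CPM in HFD, against 74.1 ± 5.35 CPM in Chow, and Kcnj8, a channel of pericytes, to 6.73 ± 1.84 CPM in HFD, against 17.0 ± 3.34 CPM in Chow. Of these 4, 0 passed with PCN.

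Fbln7 (ENSMUSG00000027386, chromosome 2, 128862981 to 128897034, plus strand) encodes fibulin 7, a secreted protein of the matrix to which cells adhere. Its values followed those of Kcnj2, at 14.1, 11.5 and 13.6 CPM in HFD PCN 5, 11 and 27 and 25.1, 2.87 and 28.8 CPM in HFD Vehicle 23, 50 and 55. HFD libraries held 30.1, 43.8 and 30.8 CPM and Chow libraries 2.63, 1.53 and 0.218 CPM, from 36, 20 and 2 counts. Again the PCN libraries lay between HFD and Chow and overlapped with neither. For Fbln7 the vehicle libraries did so too, HFD Vehicle 50 included. The log2 fold change of PCN over vehicle was -0.53 (SE 0.69), and -1.03 (SE 0.16) without HFD Vehicle 50. With diet Fbln7 rose with the largest fold of the 9 genes tested (log2 fold change 4.35, SE 0.43, edgeR adjusted p = 8.41e-05), and without Chow 8 the log2 fold change was 5.03. Of 7 listed fibulins and hemicentins all were tested with diet, and 3 rose and 2 fell, where 59.8% of all genes passed. Fbln1 and Efemp2, matrix fibulins, rose to 43.6 ± 7.07 and 35.6 ± 1.23 CPM in HFD, against 7.64 ± 0.403 and 11.6 ± 2.04 CPM in Chow. Of these 7, 0 passed with PCN.

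The diet comparison is the one the choice of genes did not use. Of the 9 genes tested there, 2 rose (Kcnj2 and Fbln7), 4 fell (Mc2r, Dmrt2, Cacna1e and Stmn2) and 3 did not pass (Csrp2, Gpr141 and Ildr2), while 59.8% of all 16216 genes passed, 29.8% higher and 30% lower. Nothing particular to these genes is read from that share. Their median size of log2 fold change was 1.92, against 0.64 over all genes, and nothing is read from this median. Dmrt2, Cacna1e, Stmn2, Kcnj2 and Fbln7 were chosen only without HFD Vehicle 50, a library with a macrophage sum in the range of Chow. The choice may thus not be independent of diet. Libraries of HFD and Chow did not overlap in 8 of the 10 genes, with HFD higher in 4 and lower in 4, and in 68.6% of all genes (39.3% higher and 29.2% lower). All 6 genes called with diet had the opposite sign with PCN, a contrast that shares no library with the diet contrast. Among all genes called with diet the sign was opposite in 36.4% with all 6 libraries and in 82.9% without HFD Vehicle 50. The PCN signs belong to the values that chose the genes, and nothing is read from this count. In HFD PCN against HFD, 7 genes were higher and 2 lower without overlap and Gpr141 overlapped, where 17.8% and 19.9% of all genes were so (37.7% in either direction). The PCN libraries had been used to choose the genes, and nothing is read from that count. The labels give no injection for HFD mice, so this contrast holds injection and vehicle as well as PCN. Vehicle libraries lay without overlap above HFD in Dmrt2, Cacna1e and Stmn2 and below it in Csrp2, Rpp25, Gpr141 and Fbln7. They had been used to choose the genes as well, and nothing is read from this either.

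**Figure D3:**
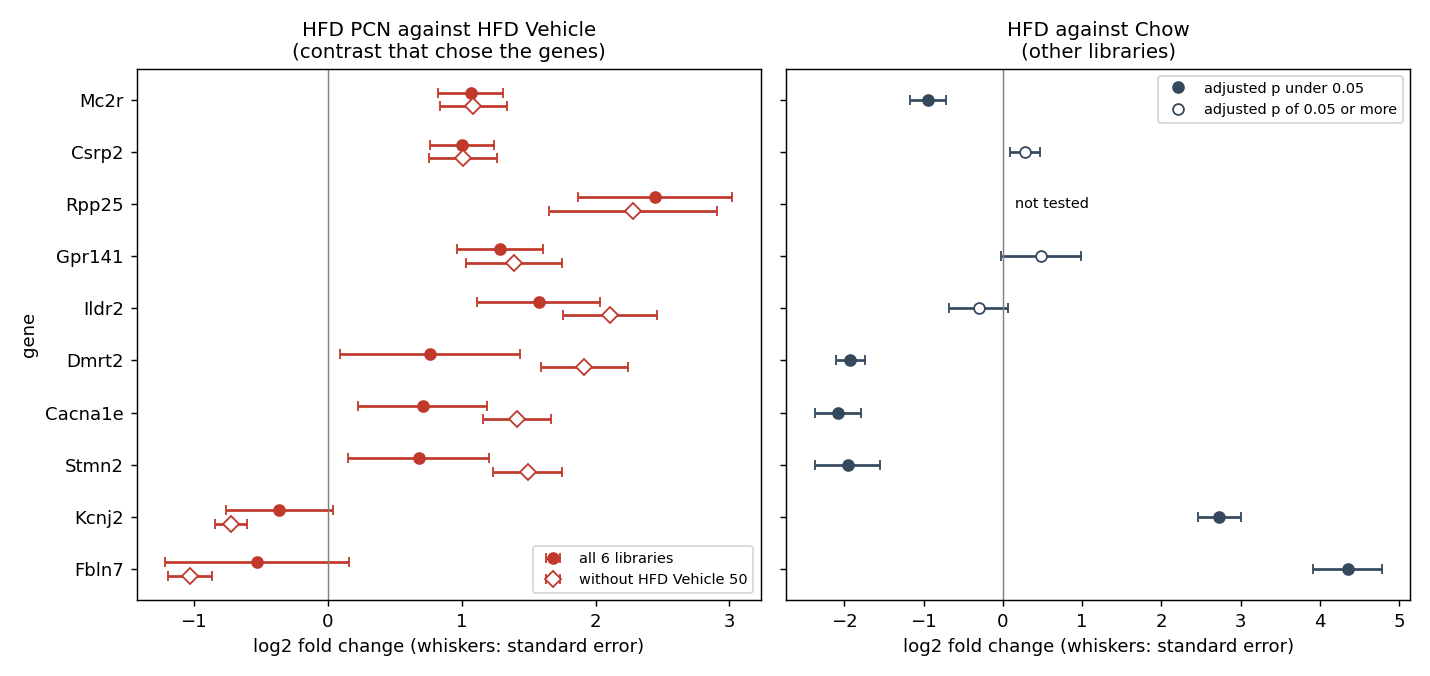
Log2 fold change (x axis) with its standard error for each gene (rows), with HFD PCN against HFD Vehicle on the left and HFD against Chow on the right. Filled circles on the left use all 6 libraries and open diamonds leave out HFD Vehicle 50, and filled circles on the right passed an adjusted p of 0.05. Dmrt2, Cacna1e, Stmn2, Kcnj2 and Fbln7 lie farther from 0 on the left without HFD Vehicle 50, and their signs are opposite on the right.

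Within the PCN group the genes differed in their order. Csrp2, Rpp25, Ildr2 and Fbln7 were highest in HFD PCN 5 and lowest in HFD PCN 11, while Mc2r, Dmrt2 and Cacna1e were highest in HFD PCN 11 and lowest in HFD PCN 5. Gpr141 was highest in HFD PCN 5, Stmn2 in HFD PCN 27 and Kcnj2 in HFD PCN 11, each in an order of its own. Macrophage markers summed to 10660, 4408 and 7090 CPM in HFD PCN 5, 11 and 27, and adipocyte markers to 8940, 19230 and 11940 CPM. Mc2r, Dmrt2 and Cacna1e thus had the order of the adipocyte sum and the reverse order of the macrophage sum. Csrp2, Rpp25, Ildr2 and Fbln7 had the order of the macrophage sum, which not all of its markers shared. Adgre1, Cd68, Csf1r and Trem2 had that order. Itgax, Gpnmb and Cd9 were lowest in HFD PCN 27, and Lyz2, Mrc1 and C1qa were highest there. Of the mesothelial markers, Upk1b, Krt19, Krt8, Wt1 and Bnc1 had the order of the macrophage sum too, and the others did not. The order of the adipocyte sum was also that of endothelial markers, at 612, 1006 and 929.5 CPM in HFD PCN 5, 11 and 27. Smooth muscle and pericyte markers had it too, at 433, 644 and 582 CPM. Markers of neutrophils and mast cells, at 63.5, 39.8 and 50.7 CPM, had the order of the macrophage sum. The part of any of these cells in the values of the genes was not tested. In whole tissue, fewer cells of a type and less RNA per cell cannot be told apart.

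Mesothelial markers were uneven between libraries. The 14 markers, all measured, summed to 170, 144 and 91.0 CPM in HFD PCN 5, 11 and 27 and to 32.0, 99.6 and 14.99 CPM in HFD Vehicle 23, 50 and 55. They summed to 11.3 to 68.2 CPM in HFD and 13.9 to 39.9 CPM in Chow. Msln, mesothelin, was at 15.7, 15.1 and 7.20 CPM in the PCN libraries and at 3.71, 13.8 and 3.58 CPM in the vehicle libraries. Upk1b, Krt19, Krt8, Lrrn4, Gpm6a and Slpi were higher in all PCN libraries than in any vehicle library, as 3.57% of all genes were. The other mesothelial markers overlapped between these groups, as Msln did. The part of mesothelial cells in the values of the 10 genes was not tested. HFD Vehicle 50 had the highest mesothelial sum of the vehicle libraries. In it Mc2r and Csrp2 lay between the other vehicle libraries, Rpp25, Kcnj2 and Fbln7 were the lowest of that group, and Gpr141, Ildr2, Dmrt2, Cacna1e and Stmn2 the highest. Endothelial markers summed to 612 to 1006 CPM in HFD PCN, 568 to 1589 CPM in HFD Vehicle, 453 to 472 CPM in HFD and 1334 to 1383 CPM in Chow.

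**Figure D4:**
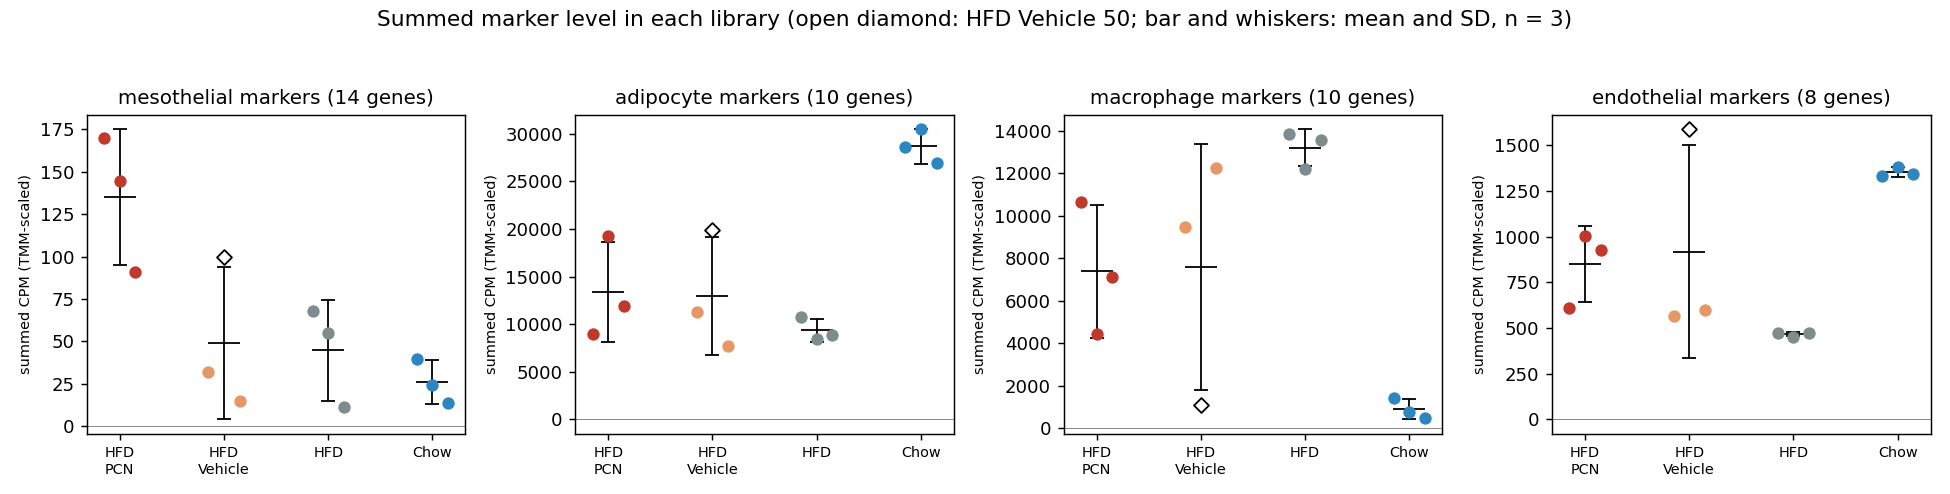
Summed level (y axis, CPM scaled with TMM) of the measured markers of mesothelial cells, adipocytes, macrophages and endothelial cells in each library (x axis, HFD PCN, HFD Vehicle, HFD and Chow). Points are libraries, the open diamond is HFD Vehicle 50, and bars and whiskers are the mean and SD of 3 libraries. Mesothelial sums are 91.0 to 170 CPM in HFD PCN and 14.99 to 99.6 CPM in HFD Vehicle, and the macrophage sum of HFD Vehicle 50 lies in the range of Chow.

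Per kilobase of exon, the scale on which levels of different genes can be set side by side, Dmrt2 was the highest in HFD PCN at 17.9 CPM per kb, followed by Mc2r at 11.7, Cacna1e at 8.52 and Csrp2 at 7.16 CPM per kb. Kcnj2, Fbln7 and Ildr2 were at 4.98, 4.05 and 3.87 CPM per kb, and Rpp25, Stmn2 and Gpr141 at 1.61, 0.801 and 0.323 CPM per kb. In HFD the order was led by Fbln7 and Kcnj2, at 10.8 and 9.21 CPM per kb, with Mc2r next at 4.46 CPM per kb. The exons of all transcripts in GENCODE M21 were joined for these lengths, from 1.42 kb for Rpp25 to 25.2 kb for Cacna1e. A long union lowers the value of a gene. Mc2r and Dmrt2 have other positions in GENCODE M21 than those given with the counts. The order of the genes is thus approximate.

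The genes with the most similar pattern were searched over the log2 CPM of the 12 libraries among 12936 genes with a mean of at least 1 CPM, as a description. All values share the same libraries and the same group differences. Kcnj2 and Fbln7 were most like each other among the members (Pearson's r = 0.99), and both had Snx20, a sorting nexin gene of leukocytes, as nearest gene outside them (0.99 each). Dmrt2 and Cacna1e had r = 0.94 with each other, Csrp2 and Rpp25 0.90, and Cacna1e and Stmn2 0.88. The nearest genes were Ric3 and Plpp3 for Mc2r (0.96 and 0.92), Itgb8 and Tenm3 for Csrp2 (0.92 and 0.89), Abcg3 and Prr15 for Rpp25 (0.96 and 0.95), and Gstp2 and Ccr2 for Gpr141 (0.91 and 0.87). They were Crb2 and Thbs2 for Ildr2 (0.94 each), Sema6c and Mllt3 for Dmrt2 (0.97 and 0.96), Chrdl1 and Cyp4b1 for Cacna1e (0.95 each), and Trpm6 and Megf6 for Stmn2 (0.94 and 0.93). After Snx20 came Ptprs for Kcnj2 and Tspan33 for Fbln7 (0.99 each). Over the 8 libraries of HFD-fed mice without HFD Vehicle 50, a set chosen after seeing the data, Itgb8 again led for Csrp2 (0.99) and was nearest to Rpp25 too (0.94). The nearest gene was another one than over 12 libraries for the 9 members other than Csrp2, such as Tm4sf1 for Mc2r (0.99), Dnpep for Kcnj2 and Exoc4 for Fbln7 (0.98 each). Itgb8, an integrin subunit that activates TGF-beta, averaged 7.87 CPM in HFD PCN, 2.498 CPM in HFD Vehicle, 2.69 CPM in HFD and 1.92 CPM in Chow.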

How the data were processed

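RNA sequencing counts of 12 libraries in 4 groups of 3 were used, with groups taken from the sample descriptions. Whether each library is 1 animal is not stated, and p-values then reflect only how these samples vary, which may be technical. Whole-number counts per gene came from 2 tables of the authors, covering HFD and Chow (30327 genes), and HFD PCN and HFD Vehicle (30453 genes), and 28008 genes were in both. The genome build GRCm38 (mm10) and the tools HISAT2, HTSeq and DESeq2 are named, per the submitters' processing notes, without roles. The same deposited tables hold other columns by the authors, of which the p-values are quoted (log2 fold changes and other statistics were not used). No per-sample column was left unmatched. The 10 genes were found by symbol in both tables, each with 1 row and the same identifier, and 8 had the same start and end in GENCODE M21. Positions are 1-based.

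The deposited counts went into edgeR 4.0.16 (R 4.3.3), whose quasi-likelihood test was run after TMM scaling and filterByExpr, with p-values adjusted over all genes by Benjamini-Hochberg and a threshold of 0.05. Each comparison was fitted on its own 6 libraries, and levels in CPM were scaled with TMM over all 12. The SE is the log2 fold change over the root of its F statistic. Alternatives were DESeq2 1.42.0, RLE scaling, 1 fit of all 12 libraries, a minimum of 1 CPM in 3 libraries, no filter, library totals for levels, and each library left out in turn. DESeq2 without HFD Vehicle 50 was added after seeing the data. The fit was tested on simulated data. Named genes are the 10 genes, Mrap, the 2 most similar genes and the first markers of a list. Up to 2 relatives of each gene, called with diet with the smallest p, are named too. Further markers are named where single markers of a list differ. Members, lists and rules were chosen with earlier results of these data known. Promoter windows are those of RefSeq. Proteins were not used here.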

Additional observations from a re-analysis of the deposited data

How the results depend on the processing

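With diet, 97 of 99 values of the 9 tested genes under the alternatives kept their direction and their side of an adjusted p of 0.05. The exceptions came without Chow 8, where Gpr141 passed (log2 fold change 1.58; 0.15 to 1.58 with each library left out) and Ildr2 turned its sign (0.16; -0.60 to 0.16). The cause was not tested. The number of genes called with diet was 7953 to 10889 with each library left out, against 9699. With PCN, 0 genes were called by edgeR in every alternative run, and 1 by DESeq2 with all libraries and 44 without HFD Vehicle 50. Of 119 values of the 10 genes with PCN, 6 moved by more than the spread between replicates, for Dmrt2, Cacna1e and Stmn2 without HFD Vehicle 50, and the sign was the same in all 119. That spread includes HFD Vehicle 50 itself, which widens it. Fbln7 and Kcnj2 did not move by this measure, although without that library they went from -0.53 to -1.03 and from -0.36 to -0.72. Group means changed by more than 1 SD with library totals in 2 of 40 cases, Stmn2 in Chow (2.96 CPM) and Kcnj2 in HFD PCN (28.6 CPM). Rpp25 could be tested with diet in 7 settings and passed in each, with a log2 fold change of 3.00 without Chow 17. It entered these settings with no expression filter or through libraries where it was high, so nothing is read from its passing in each. Without Chow 8 the Chow group held 0 counts of Rpp25, and the fitted 6.87 is no bound. No paired analysis was possible because no library number occurs in more than 1 group. With 3 libraries a group and the spread within HFD Vehicle, differences with PCN, large ones included, could go undetected, and 0 calls do not show that genes did not differ.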
